A study of Mus musculus with 6 samples.

Results

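The genes of MHC class II antigen presentation were examined in bulk RNA from MCA205 tumors, a fibrosarcoma line of mouse grown under the skin. They were chosen by symbol as 10 genes of the 54309 gene identifiers in the table, namely Ciita, H2-Aa, H2-Ab1, H2-Eb1, Cd74, H2-DMa, H2-DMb1, H2-DMb2, H2-Oa and H2-Ob, and all 10 had a mean of at least 10 normalized counts. Control mice drank MilliQ water and FF-10101–treated mice drank water with 0.1 mg/mL FF-10101, an inhibitor of the tyrosine kinases FLT3 and CSF1R that binds covalently, from day 1 after inoculation. All mice were female C57BL/6J animals of 7 weeks without any engineered allele, and 3 tumors per group were taken on day 8. The labels name the same transplanted line for all 6 tumors, and all values describe 1 tumor model at 1 time point. The labels number the tumors within each group and name no mouse, cage or batch, so p values measure only the spread between these tumors, which may be technical in part.

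MHC class II molecules are pairs of an α and a β chain that present peptides from endosomes to CD4+ T cells. Dendritic cells, macrophages and B cells carry them constitutively or after activation, and interferon-γ can induce them in many other cells, tumor cells included, through the coactivator CIITA. CIITA binds no DNA itself but docks on the RFX, CREB and NF-Y proteins that sit on a conserved pair of promoter elements, the X box and the Y box. New chains are escorted by the invariant chain, encoded by Cd74, which is cut away in endosomes. The chaperone DM (H2-DMa with H2-DMb1 or H2-DMb2) then exchanges its last fragment for peptide, and DO (H2-Oa with H2-Ob) inhibits DM.

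Promoter stretches are shown first because the X and Y boxes are known as shared elements of class II genes. Ciita, which encodes the coactivator, has promoters of its own kind. RefSeq promoters (GRCm38.p6, from 250 bases before to 50 bases after a gene start) were matched by symbol for 7 of the 10 genes, with 8 entries since H2-DMa had 2 starts. H2-Ab1, Cd74 and Ciita had no entry. The letters searched were AGNAACNNATG for the X box and ATTGG for the Y box on the same strand, with 25 to 40 bases between their first letters, a window set after these promoters had been read. Each stretch below runs 5′ to 3′ along the gene, with the X and Y letters in capitals.
H2-Eb1 (chr17:34305767-34305820, + strand): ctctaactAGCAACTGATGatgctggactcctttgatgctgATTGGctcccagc
H2-DMb1 (chr17:34153088-34153142, + strand): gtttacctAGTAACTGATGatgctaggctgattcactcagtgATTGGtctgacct
H2-DMb2 (chr17:34145117-34145171, + strand): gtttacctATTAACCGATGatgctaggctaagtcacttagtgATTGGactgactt
H2-Ob (chr17:34238809-34238860, + strand): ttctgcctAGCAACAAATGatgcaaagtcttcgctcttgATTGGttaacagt
H2-Aa (chr17:34287859-34287913, - strand): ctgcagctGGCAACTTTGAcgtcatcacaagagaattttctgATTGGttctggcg

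H2-Eb1, H2-DMb1 and H2-Ob held both sets of letters exactly, with the X letters starting 92, 95 and 88 bases before the gene start and the Y letters following after 33, 34 and 31 bases. Over all 32851 promoters of the same length, this exact pair was present in 4 (0.0122%), and the fourth was that of H2-Eb2, another gene of the class II region. Without that window, both sets of letters in either order and at any distance were in 131 promoters (0.399%). The X letters alone were in 0.895% of promoters, and ATTGG, on either strand, was in 37.4%. H2-DMb2 departed from the X letters at 1 position, which 0.347% of promoters matched or bettered within the window. For this share and that of H2-Oa below, no count without the window was made. Within the 11 X letters, counted from 1 at the first, it differed from H2-DMb1 by G2T and T7C, of which position 7 is an N in the letters searched. The printed stretches of these 2 genes also differ outside the X letters. In H2-Aa the best stretch departed at 4 positions, with its Y letters 34 bases on. H2-Oa departed at 2, which 3.01% of promoters matched or bettered, and H2-DMa at 5 from one start with no match from the other. These are matches of letters only.

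Depth ranged from 9143806 to 13258258 reads per tumor over the 6 tumors, and 18467 to 19440 genes had a read. Reads were divided by a size factor per tumor to give the normalized counts used below, and genes were tested with limma on log2(normalized count + 1), with Benjamini-Hochberg adjustment over 13963 genes. Across all of them, 6 genes passed an adjusted p of 0.05 (0.043%). Control tumor 1 stood apart from the other control tumors, and without it 3051 genes passed (21.9%). In control tumors 2 and 3, but not in control tumor 1, the keratin gene Krt8 had 454 and 491 normalized counts, against 0 in control tumor 1 and 0 to 3.82 in the FF-10101–treated tumors. Krt18, another keratin gene, had 717 and 643 in control tumors 2 and 3, 55.2 in control tumor 1 and 61.9 to 93.2 in the FF-10101–treated tumors. The controls that remain when control tumor 1 is left out are thus those that differ from the other 4 tumors in these genes, and the part of this difference in the results was not tested. Fold changes and tested ratios of the 10 class II genes are given with and without control tumor 1. In bulk tissue, fewer cells of a type and less RNA per cell cannot be told apart.

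None of the 10 class II genes passed an adjusted p of 0.05, beside 0.043% of all genes tested, and 1 had an unadjusted p under 0.05 beside 16.3%. Limma adjusted p values ran from 0.256 to 0.973. The mean log2 value was higher in the FF-10101–treated tumors for 7 genes and lower for 3, with a median log2 fold change of 0.24 against 0.02 over all genes. What the genes shared was an order of tumors. Control tumor 1 had the highest value of the 6 tumors for 10 of 10 genes, as for 20.4% of all genes. For 8 of 10, all but H2-DMb2 and H2-Ob, the FF-10101–treated tumors then followed in the order 2, 3 and 1, and control tumors 2 and 3 were lowest. All FF-10101–treated tumors lay between control tumor 1 and the other control tumors in this way for 7.6% of all genes, and above control tumors 2 and 3 alone for 28.4%. Together the 10 genes took 0.884% ± 0.656 of the reads in the control tumors and 0.957% ± 0.255 in the FF-10101–treated tumors (SD, n = 3).

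**Figure D1:**
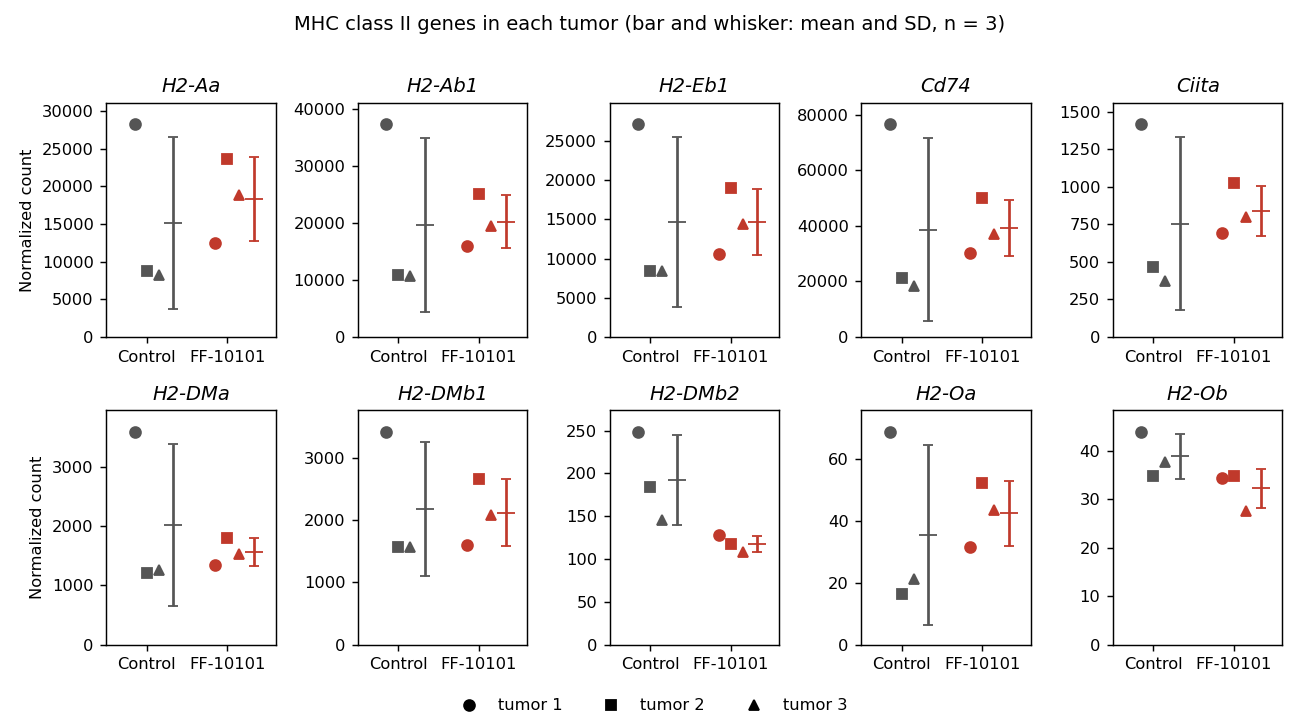
Normalized count (linear axis from 0) of each class II gene in each tumor, with the tumor number given by the symbol and the mean and SD of each group (n = 3) beside the points. Control tumor 1 is highest in all 10 panels, and in 8 of them the FF-10101–treated tumors lie between it and control tumors 2 and 3.

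Ciita, the master regulator of class II transcription, had 1416 normalized counts in control tumor 1, 468 in control tumor 2 and 375 in control tumor 3. FF-10101–treated tumors 1, 2 and 3 had 695, 1023 and 801. The groups overlapped through control tumor 1 alone, as every FF-10101–treated tumor was above control tumors 2 and 3. Means were 753 ± 576 and 840 ± 167 (SD, n = 3), a log2 fold change of 0.40 (SE 0.46, limma adjusted p = 0.683, exact two-sided permutation p = 0.5, where 3 against 3 allows no less than 0.1). Without control tumor 1 the log2 fold change was 0.98 (limma adjusted p = 0.0125), in a fit where 12.0% of all genes passed upward. Control tumor 1 was 3.36-fold above the mean of the other 2 control tumors, and the FF-10101–treated mean was 1.99-fold above it.

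H2-Ab1, the β chain of the I-A molecule, had 37379, 10898 and 10679 normalized counts in control tumors 1, 2 and 3 and 15912, 25170 and 19521 in FF-10101–treated tumors 1, 2 and 3. Its partner H2-Aa, the I-A α chain, had 28264, 8777 and 8202 and then 12531, 23572 and 18849. H2-Eb1, the β chain of the I-E molecule, had 27158, 8459 and 8411 and then 10571, 18979 and 14357. In all 3 chain genes the spread among control tumors was wider than any difference between the group means. Log2 fold changes were 0.48 for H2-Aa (SE 0.48, limma adjusted p = 0.634), 0.28 for H2-Ab1 (SE 0.48, adjusted p = 0.789) and 0.19 for H2-Eb1 (SE 0.46, adjusted p = 0.856). Without control tumor 1, H2-Aa (1.06, adjusted p = 0.0214) and H2-Ab1 (0.88, adjusted p = 0.0197) passed and H2-Eb1 (0.75, adjusted p = 0.0509) did not. The I-E α chain is a pseudogene in C57BL/6 mice, and H2-Ea-ps had 0 reads in all 6 tumors, where 0 allows up to 3 reads. H2-Eb2, a further β chain gene, stayed at 7.76 to 20.3 normalized counts, and its log2 fold change was 0.13 (adjusted p = 0.914) or 0.49 without control tumor 1 (adjusted p = 0.514).

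Cd74 was the most abundant of the 10 genes, at 76577, 21092 and 18257 normalized counts in control tumors 1, 2 and 3 and 30052, 50109 and 37192 in FF-10101–treated tumors 1, 2 and 3. Its means of 38642 ± 32884 and 39118 ± 10166 (SD, n = 3) differed by far less than the spread, and the log2 fold change was 0.31 (SE 0.53, limma adjusted p = 0.791). Without control tumor 1 it was 0.96 (adjusted p = 0.0218). Per kilobase of the longest annotated transcript, the level averaged over all 6 tumors was 27574 normalized counts for Cd74, 16441 for H2-Ab1, 8781 for H2-Eb1 and 5181 for H2-Aa. The DM genes followed with 1533 for H2-DMb1, 895 for H2-DMa and 105 for H2-DMb2, with Ciita between the last 2 at 133. H2-Oa (29.0) and H2-Ob (13.3) were lowest. This order depends on the transcript length used. The longest transcript has 3223 bases for H2-Aa and 1212 for H2-Ab1, while their mean normalized counts over the 6 tumors were 16699 and 19926. Over the 6 tumors the per-kilobase ranges of neighbors in this order overlapped, except between H2-Aa and H2-DMb1, between H2-DMa and Ciita and between H2-DMb2 and H2-Oa. In the 3 chain genes and Cd74, control tumor 1 was 3.22- to 3.89-fold above the mean of the other control tumors.

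H2-DMa, the α chain of DM, had 3602, 1217 and 1257 normalized counts in control tumors 1, 2 and 3 and 1350, 1811 and 1532 in FF-10101–treated tumors 1, 2 and 3. H2-DMb1, a β chain of DM, had 3427, 1565 and 1564 and then 1598, 2673 and 2089. Both kept the shared order of tumors, but the FF-10101–treated mean was 1.26- and 1.35-fold above that of control tumors 2 and 3, against 1.74- to 2.16-fold for the 3 class II chains. Log2 fold changes were -0.19 for H2-DMa (SE 0.40, limma adjusted p = 0.835) and 0.03 for H2-DMb1 (SE 0.33, adjusted p = 0.973), and without control tumor 1 they were 0.33 (adjusted p = 0.161) and 0.41 (adjusted p = 0.189).

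H2-DMb2, the second β chain of DM, ran the other way. It had 249, 184 and 145 normalized counts in control tumors 1, 2 and 3 and 128, 117 and 108 in FF-10101–treated tumors 1, 2 and 3, so that the highest FF-10101–treated value lay under the lowest control value. Groups stood apart downward like this for 2 of the 10 genes, beside 9.37% of all genes. Means were 193 ± 52.3 and 118 ± 9.56 (SD, n = 3), a log2 fold change of -0.67 (SE 0.24, limma p = 0.0233, adjusted p = 0.256, exact permutation p = 0.1, the smallest this design allows). It was -0.47 without control tumor 1 (adjusted p = 0.132). H2-DMb1 and H2-DMb2 are near-identical copies (95.4% over 848 bases of their longest transcripts), so reads shared between them were divided by estimation and the split is uncertain. Summed, they had a log2 fold change of -0.018.

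H2-Oa, the α chain of DO, had 68.7, 16.3 and 21.1 normalized counts in control tumors 1, 2 and 3 and 31.3, 52.1 and 43.6 in FF-10101–treated tumors 1, 2 and 3, the same order as the class II chains. H2-Ob, the β chain of DO, had 43.9, 34.8 and 37.7 and then 34.4, 34.7 and 27.6. Its groups did not overlap, but by the narrowest margin, since control tumor 2 and FF-10101–treated tumor 2 had 32 reads each before scaling. Log2 fold changes were 0.51 for H2-Oa (SE 0.55, limma adjusted p = 0.661) and -0.26 for H2-Ob (SE 0.30, adjusted p = 0.683), and without control tumor 1 they were 1.12 (adjusted p = 0.062) and -0.17 (adjusted p = 0.720). The chains of DO thus differed in pattern, with a 4.21-fold range over the 6 tumors in H2-Oa and a 1.59-fold range in H2-Ob.

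**Figure D2:**
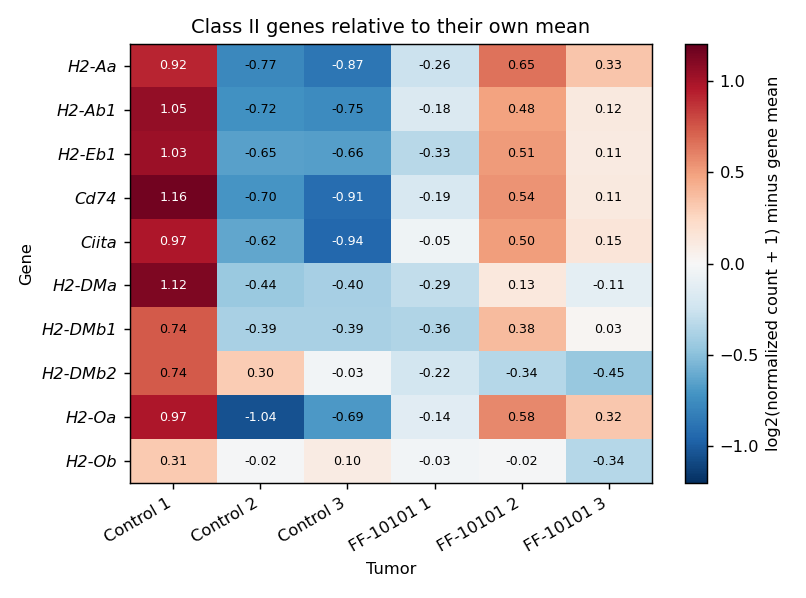
Log2(normalized count + 1) of each class II gene in each tumor minus the mean of that gene over all 6 tumors, with the value printed in each cell. Rows from H2-Aa to H2-DMb1 and the row of H2-Oa share 1 pattern, and H2-DMb2 and H2-Ob do not follow it.

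Pearson's r between each gene and the mean of the other 9 (log2 values, n = 6 tumors, given as a description because all share the same libraries) was 0.93 to 0.99 for 8 genes, 0.29 for H2-DMb2 and 0.35 for H2-Ob. Of the 3 promoters with the exact pair of letters, those of H2-Eb1 and H2-DMb1 belonged to genes of the shared order and that of H2-Ob did not. Of the promoters that matched less well, those of H2-Oa, H2-Aa and H2-DMa (2, 4 and 5 positions away) belonged to genes of the shared order and that of H2-DMb2 (1 position away) did not. Among 11507 other genes with a mean of at least 50, the 10 most like the mean of the class II genes were Vps35l, Ppt2, Ivd, Ifi30, Slc27a1, Psd4, Mark2, Plbd1, Ucp2 and Psmf1, with r from 0.985 to 0.992. Ifi30 encodes the lysosomal thiol reductase GILT, which unfolds antigens for class II loading. An r over 0.9 was found for 433 of these genes (3.76%).

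**Figure D3:**
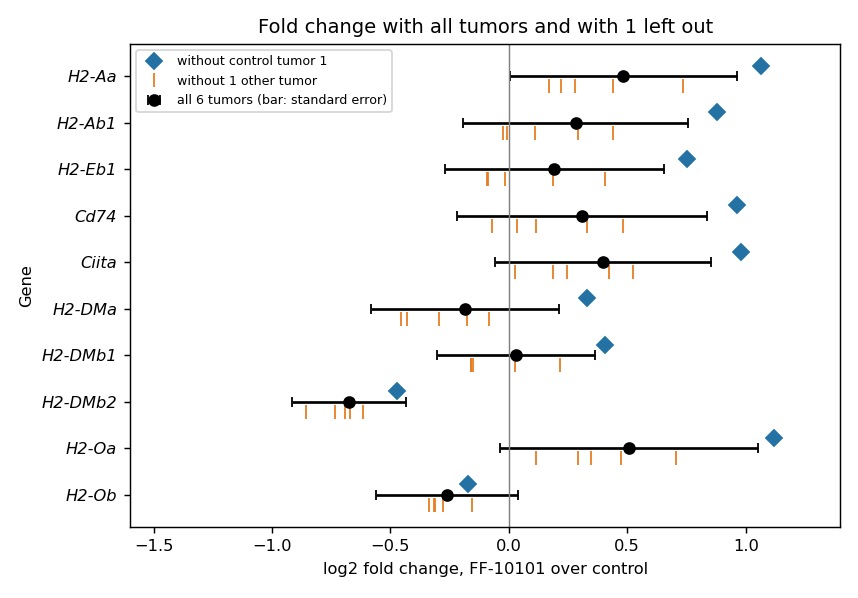
Log2 fold change of FF-10101–treated over control tumors for each class II gene, with all 6 tumors (black, bar: standard error), without control tumor 1 (blue) and without each other tumor (orange ticks). Leaving out control tumor 1 moves all 10 genes to the right, from -0.26 to -0.17 in H2-Ob and from 0.31 to 0.96 in Cd74, and of the fits drawn it is the one with class II genes (4) past the threshold.

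When control tumor 1 was left out, 4 of the 10 genes passed upward (H2-Aa, H2-Ab1, Cd74 and Ciita), beside 12.0% of all genes, and 0 downward, beside 9.88%. The median log2 fold change of the 10 was then 0.82, against 0.04 over all genes. This fit has 2 control tumors, and the 4 calls rest on which control tumors are kept. Leaving out control tumor 2, control tumor 3 or any FF-10101–treated tumor left 0 of the 10 genes past the threshold. Array weights, which let limma count tumors unequally, gave 9 of 10 past the threshold, in a fit where 59.9% of all genes passed.

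Ratios within a tumor remove what moves all genes together, and 6 were compared by exact permutation test, with p adjusted over the 6. The ratio of H2-Aa to H2-Ab1, the chains of I-A, was 0.756, 0.805 and 0.768 in control tumors 1, 2 and 3 and 0.787, 0.937 and 0.966 in FF-10101–treated tumors 1, 2 and 3 (log2 difference 0.20, exact permutation p = 0.2, adjusted p = 0.6, and 0.18 without control tumor 1). The ratio of Cd74 to H2-Ab1 stayed within 1.71 to 2.05 in all 6 tumors (difference 0.027, exact permutation p = 0.9, adjusted p = 1, and 0.084 without control tumor 1). Invariant chain and β chain thus kept nearly the same ratio while each varied more than 3-fold over the tumors. The ratio of H2-DMb2 to H2-DMb1 was 0.0726, 0.117 and 0.0929 and then 0.0798, 0.0439 and 0.0519 (difference -0.70, exact permutation p = 0.2, adjusted p = 0.6, and -0.88 without control tumor 1). The ratio of H2-Ob to H2-DMa, the inhibitor chain to its target, was 0.0122 to 0.0300 in control and 0.0180 to 0.0255 in FF-10101–treated tumors (difference -0.076, exact permutation p = 0.9, adjusted p = 1, and -0.50 without control tumor 1). The groups overlapped in all 6 ratios, and with 3 tumors per group no exact p can fall below 0.1.

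**Figure D4:**
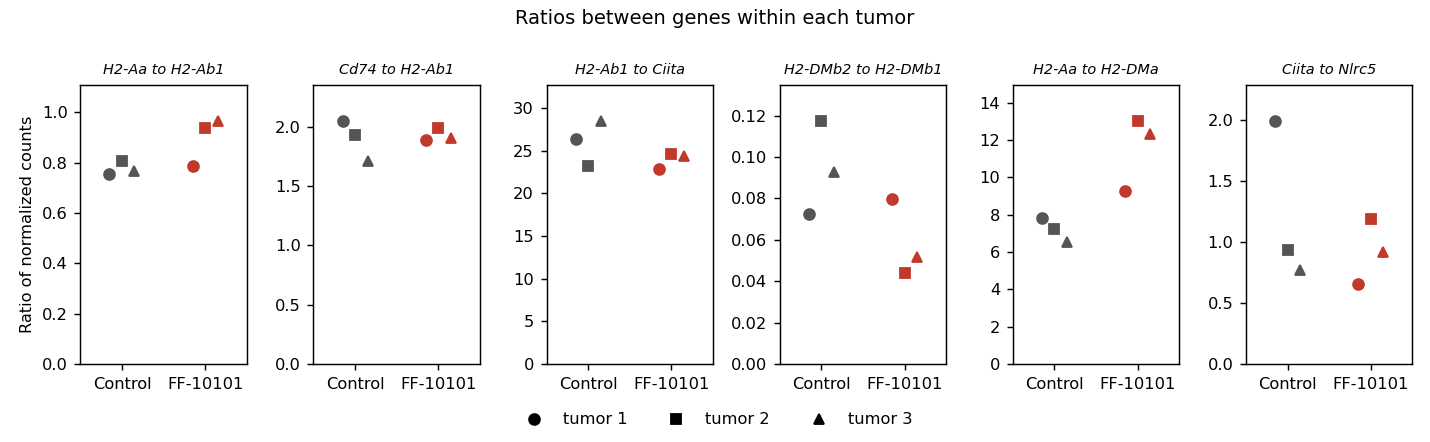
Ratio of the normalized counts of gene pairs within each tumor (linear axes from 0). Of these pairs, H2-Ab1 to Ciita and H2-Aa to H2-DMa were chosen after their values were seen. Cd74 to H2-Ab1 and H2-Ab1 to Ciita vary little, and H2-Aa to H2-DMa is higher in each FF-10101–treated tumor than in any control tumor. Single genes stood apart upward like this in 10.9% of cases.

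The class I pathway presents peptides from the cytosol to CD8+ T cells, and its coactivator NLRC5 is the counterpart of CIITA. None of its 9 listed genes passed, and 9 of 9 had a higher mean log2 value in FF-10101–treated tumors, with a median log2 fold change of 0.38. Nlrc5 had 710, 502 and 486 normalized counts in control tumors 1, 2 and 3 and 1052, 857 and 868 in FF-10101–treated tumors 1, 2 and 3, so that its groups did not overlap (log2 fold change 0.72, SE 0.19, limma adjusted p = 0.229), as for 10.9% of all genes upward. Ciita is unlike it in that control tumor 1 exceeded every FF-10101–treated tumor. The ratio of Ciita to Nlrc5 was 1.99 in control tumor 1 and 0.660 to 1.19 in the other 5 tumors (log2 difference -0.33, p = 0.6, adjusted p = 1, exact permutation test), and the difference turned to 0.084 without control tumor 1. The ratio of H2-Ab1 to the class I heavy chain H2-K1 was 0.688, 0.317 and 0.332 in control and 0.360, 0.519 and 0.408 in FF-10101–treated tumors (difference 0.025, exact permutation p = 1, adjusted p = 1, and 0.39 without control tumor 1). Log2 fold changes were 0.74 for the peptide transporter gene Tap1 (adjusted p = 0.383) and 0.11 for H2-D1 (adjusted p = 0.860), and without control tumor 1 they were 1.26 (adjusted p = 0.00154) and 0.33 (adjusted p = 0.178). Of the 9, 6 passed upward without control tumor 1, beside 12.0% of all genes, with a median of 0.69 against 0.04 over all genes.

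Genes from interferon-γ to Ciita included none that passed among 9, with a median log2 fold change of 0.51. Ifng, the cytokine itself, had 146, 25 and 11.1 normalized counts in control tumors 1, 2 and 3 and 132, 115 and 188 in FF-10101–treated tumors 1, 2 and 3 (log2 fold change 1.99, SE 0.80, limma adjusted p = 0.290, and 3.01 without control tumor 1, adjusted p = 0.00272). Control tumors 2 and 3 were lowest, as in 8 of the class II genes. Every FF-10101–treated tumor was above these 2 control tumors for 28.4% of all genes. Irf1, which acts on the interferon-inducible promoter of Ciita, was at 0.77 (adjusted p = 0.263), and the receptor chain gene Ifngr2 at -0.38 (adjusted p = 0.291). Of the 9, 7 passed upward and Ifngr2 passed downward without control tumor 1, beside 12.0% and 9.88% of all genes, with a median of 0.98.

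Factors that bind the class II promoters with CIITA did not share that pattern. None of 7 passed, and the median log2 fold change was -0.09. Rfx5, the DNA-binding subunit of RFX, had 245 to 273 normalized counts in control and 312 to 381 in FF-10101–treated tumors (0.39, limma adjusted p = 0.299). Rfxank, another RFX subunit, had 159 to 189 and 132 to 154 (-0.31, adjusted p = 0.428). The groups of these 2 genes stood apart in opposite directions, 1 of 7 genes each way, beside 10.9% of all genes upward and 9.37% downward. With control tumor 1 left out, Nfya alone passed, downward (-0.47, adjusted p = 0.0369), beside 9.88% of all genes.

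Of 7 genes for endosomal proteases and GILT none passed, with a median log2 fold change of 0.10, or 0.47 without control tumor 1. Ctss, which encodes cathepsin S, the main protease of the last invariant chain step in many antigen-presenting cells, had 26856, 10266 and 8592 normalized counts in control tumors 1, 2 and 3 and 13229, 22995 and 26118 in FF-10101–treated tumors 1, 2 and 3 (0.58, limma adjusted p = 0.543). Lgmn, the asparaginyl endopeptidase gene, was at -0.44 (adjusted p = 0.484), or -0.099 without control tumor 1, and Ifi30 at 0.17 (adjusted p = 0.853). Leaving out control tumor 1, Ctss (1.09, adjusted p = 0.0289) and Ifi30 (0.68, adjusted p = 0.0353) passed upward, beside 12.0% of all genes.

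Genes that act on class II at the cell surface were 4 for turnover, 5 for co-stimulation and 4 for receptors and ligands, and none passed. Cd83, which stabilizes surface class II by countering the ligase MARCH1, had 566, 561 and 461 normalized counts in control and 362, 402 and 290 in FF-10101–treated tumors, with groups that did not overlap, as for 9.37% of all genes downward (log2 fold change -0.60, SE 0.18, limma adjusted p = 0.230). The ligase genes Marchf1 and Marchf8 were at -0.08 (adjusted p = 0.920) and -0.07 (adjusted p = 0.852), and at 0.14 and -0.13 without control tumor 1. Of the co-stimulatory genes, Cd80 was at 0.79 (adjusted p = 0.300) and Icosl at -0.52 (adjusted p = 0.313). Lag3, whose product binds class II on T cells, was at 0.58 (adjusted p = 0.660), Cd4 at 0.36 (adjusted p = 0.656, and 0.54 without control tumor 1) and Mif, a ligand of CD74, at -0.32 (adjusted p = 0.328). Median log2 fold changes were -0.12, 0.41 and 0.15 for the 3 lists, and -0.16, 0.77 and 0.22 without control tumor 1. Without control tumor 1, the turnover list had 0 calls, the co-stimulatory list 4 upward and the last list 1 upward, which was Lag3 (1.38, adjusted p = 0.0138), beside the same 12.0%.

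Marker lists of cell types that can carry class II were summed in each tumor, and no gene of any marker list passed an adjusted p of 0.05 with all 6 tumors. In the fit without control tumor 1, beside 12.0% of all genes upward and 9.88% downward, 4 of 4 endothelial, 4 of 6 neutrophil, 2 of 4 pan-leukocyte, 2 of 9 conventional dendritic cell, 2 of 6 mesenchymal and 1 of 6 T cell genes passed upward. There, 4 monocyte genes passed upward and 1 downward of 6, 1 macrophage gene upward and 2 downward of 9, and 2 epithelial genes downward of 6. The 4 pan-leukocyte genes (Ptprc, Itgam, Itgb2 and Laptm5) were highest in control tumor 1, 4 of 4, with sums of 20773, 8555 and 6788 normalized counts in control tumors 1, 2 and 3 and 8475, 11584 and 13291 in FF-10101–treated tumors 1, 2 and 3. Control tumor 1 led this list as it led the class II genes, but FF-10101–treated tumor 3 exceeded tumor 2 in it, unlike in the 8 class II genes. T cell markers (6 genes, sums of 792 to 2062 in control and 984 to 1754 in FF-10101–treated tumors) and monocyte markers (6 genes, 4347 to 9773 and 5456 to 11804) overlapped between groups. Their part in the class II values was not tested.

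Macrophage markers (9 genes) summed to 64397, 36198 and 36429 normalized counts in control tumors 1, 2 and 3 and to 23622, 32846 and 32870 in FF-10101–treated tumors 1, 2 and 3, and the groups did not overlap. Of the 9, 4 stood apart downward (Adgre1, which encodes F4/80, and C1qa, C1qb and C1qc, which encode the chains of 1 complement protein), beside 9.37% of all genes, and none passed. The complement genes made up 63.0% to 75.7% of the sum. Csf1r, one of the targets of FF-10101, had 8961, 4388 and 3568 and then 3295, 5006 and 5024 normalized counts (log2 fold change -0.25, limma adjusted p = 0.735), and its sign turned without control tumor 1 (0.14, adjusted p = 0.658). In 8 of 10 class II genes all FF-10101–treated values were above control tumors 2 and 3, while the macrophage sums of the 3 FF-10101–treated tumors were below all control sums. The part of macrophages in the class II values was not tested. Conventional dendritic cell markers (9 genes) summed to 4779 to 5489 in control and 3789 to 5640 in FF-10101–treated tumors, and 4211 to 4675 and 3177 to 5207 of these came from Fscn1, which many tumor cells also express. Plasmacytoid dendritic cell markers (5 genes) summed to 77.6 to 119 and 86.3 to 178. B cell markers (8 genes) summed to 57.4 to 76.1 and 41.3 to 72.9, with Cd79b, a chain of the B cell receptor complex, the most abundant of them in each tumor at 22.9 to 50.7. Cd79a was at 3.33 to 17.4, Ms4a1 at 1.13 to 13 and Pax5 at 0.764 to 1.13, and Cr2 was at 0 in 5 of 6 tumors. The part of B cells in the class II values was not tested.

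**Figure D5:**
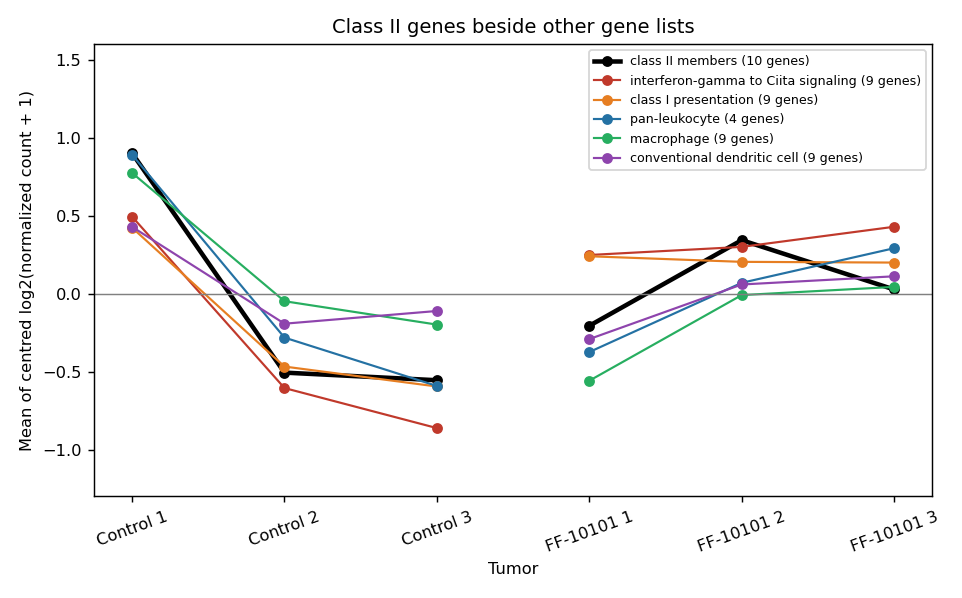
Mean over the genes of a list (those with a mean of at least 10) of log2(normalized count + 1) minus the mean of each gene over the 6 tumors, by tumor. Lines join the values of 1 list within a group and imply no order of tumors. The class II genes run from 0.90 in control tumor 1 to -0.56 in control tumor 3 and from -0.21 to 0.34 in the FF-10101–treated tumors. Of the other lists drawn, the interferon-γ list and the class I list have control tumors 2 and 3 lowest as well. So do lists not drawn, namely the monocyte, neutrophil, T cell, endothelial, mesenchymal, co-stimulatory and endosomal lists.

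Markers of tissues that do not present antigen by profession also varied. Mesenchymal genes (6) summed to 243223, 119024 and 96023 normalized counts in control tumors 1, 2 and 3 and 183043 to 277469 in FF-10101–treated tumors and Vim, Col1a1 and Col3a1, genes of fibroblast-like cells such as the labelled fibrosarcoma, were abundant in every tumor. Endothelial genes (4) summed to 4545, 1776 and 1273 and to 4460 to 5033, and neutrophil genes (6) to 1927 to 2276 and 2737 to 3196. Epithelial genes (6) summed to 236, 1321 and 1279 in control tumors 1, 2 and 3 and to 1124, 189 and 204 in FF-10101–treated tumors 1, 2 and 3. Control tumors 2 and 3, the lowest in 8 class II genes, were also the lowest in the mesenchymal, endothelial, T cell and monocyte sums, while Vim was not lowest in them (32046 and 30502 against 28120 to 36521 in the other 4 tumors). The epithelial sums hold unlike genes, mostly Krt8 and Krt18 in control tumors 2 and 3 and mostly Krt14 (484) and Krt5 (396) in FF-10101–treated tumor 1. The part of these tissues in the class II values was not tested.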

How the data were processed

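Bulk RNA was sequenced from 3 control and 3 FF-10101–treated MCA205 tumors. The authors trimmed reads with fastp version 0.19.5, quantified them with Salmon version 1.5.1 on GENCODE vM27 (GRCm39) and used DESeq2 version 1.22.1. The deposited values are log2 values, 1 per gene and tumor, as the variance-stabilizing transformation of DESeq2 writes them. Undoing it returned whole reads in 100% of cases (tolerance 1e-06), with 1 size factor per tumor. Normalized counts were planned for, so the planned test was run on these recovered values.

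Of the 54309 identifiers, 51484 were named with GENCODE vM21 (GRCm38). As that build differs from the authors', the printed coordinates are those of promoter stretches only, which came from RefSeq (GRCm38.p6) and are on its build. Transcript lengths and copies (BLAST version 2.17.0) came from vM21. R version 4.3.3 and limma version 3.58.1 (trend, group as the sole term) were applied to log2(normalized count + 1) over the 13963 genes whose mean reached 10. This scale understates changes of genes with few reads. Ratios were tested by exact two-sided permutation. The steps were tested on simulated data. P values measure the spread between these tumors, and limits from 0 reads cover counting error only.

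All 10 class II genes were named in full. For each pathway list, values were given for up to 4 genes, those with the largest and smallest log2 fold change and any whose role is described. Members and lists were chosen with earlier results of these data known. Alternatives were other pseudocounts, minimum counts, scalings, no trend, array weights, voom, the deposited values, a block for the replicate number, leaving out each tumor, and H2-DMb1 summed with H2-DMb2. The values of some listed genes are not reported here. Other experiments of the study were not analysed here.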

Additional observations from a re-analysis of the deposited data

How the results depend on the processing

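With all 6 tumors, 0 class II genes passed under 10 of the alternative settings (other pseudocounts, minimums and scalings, no trend, voom, deposited values and the replicate block). Array weights, which gave control tumor 1 a weight of 0.139 and FF-10101–treated tumor 2 one of 8.08, had 9 class II genes past the threshold, beside 59.9% of all genes, and turned H2-DMa to 0.49. Leaving out 1 tumor gave 0 to 4 class II genes, the 4 without control tumor 1.

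Over all genes, calls went from 6 to 17 without a minimum, 3 with a mean of at least 50, 8365 with array weights and 1 with the replicate block, and ran from 1 to 3051 with 1 tumor left out. Deviations from the group mean of tumors with the same replicate number correlated at -0.29, -0.040 and -0.28. With 3 tumors per group these deviations constrain one another, so whether the numbers pair the tumors cannot be told from them. The block changed no class II call (0 with it and without it).

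With 1 tumor left out, the log2 fold change ran from -0.024 to 0.88 for H2-Ab1, -0.091 to 0.75 for H2-Eb1, -0.071 to 0.96 for Cd74, -0.45 to 0.33 for H2-DMa and -0.16 to 0.41 for H2-DMb1, which was also -0.018 when summed with H2-DMb2. H2-Aa (0.17 to 1.06), Ciita (0.025 to 0.98), H2-Oa (0.11 to 1.12), H2-DMb2 (-0.86 to -0.47) and H2-Ob (-0.34 to -0.16) kept their sign. With all 6 tumors, quantile normalization moved H2-Ab1 to 0.46, H2-Eb1 to 0.33, H2-DMb1 to 0.054, H2-Oa to 0.26 and H2-Ob to -0.49, and the deposited values moved H2-Oa to 0.24 and H2-Ob to -0.14, all without a change of sign or call. Log2 differences of ratios ran from -0.50 to 0.15 for H2-Ob to H2-DMa (0.040 with the deposited values), -0.047 to 0.084 for Cd74 to H2-Ab1, -0.60 to 0.084 for Ciita to Nlrc5 and -0.17 to 0.39 for H2-Ab1 to H2-K1. The cause of these changes was not tested. H2-Oa and H2-Ob could not be fitted with a mean of at least 50, which leaves them out. With 3 tumors per group, differences smaller than the spread of the control tumors could not be detected, and H2-Oa and H2-Ob rest on few reads.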

Other observations

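Some ratios were looked at after the values had been seen and are given without a test. H2-Aa to H2-DMa was 7.85, 7.21 and 6.53 in control tumors 1, 2 and 3 and 9.28, 13 and 12.3 in FF-10101–treated tumors 1, 2 and 3, and H2-Ab1 to H2-DMa was 10.4, 8.95 and 8.50 and then 11.8, 13.9 and 12.7. In both, every FF-10101–treated tumor was above every control tumor, control tumor 1 included. They share H2-DMa, and H2-Aa and H2-Ab1 had the same order of tumors, so they are not separate observations. Single genes stood apart upward in 10.9% of cases, and no share over pairs of genes was computed. H2-Ab1 to Ciita, the target to its coactivator, stayed within 22.9 to 28.5 over the 6 tumors and Cd74 to Ciita within 43.2 to 54.1, although Ciita itself varied 3.78-fold.

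H2-Ab1 was also set against the marker sums of each tumor. Its ratio to the macrophage sum was 0.580, 0.301 and 0.293 in control tumors 1, 2 and 3 and 0.674, 0.766 and 0.594 in FF-10101–treated tumors 1, 2 and 3, so that the groups did not overlap. This rests on C1qa, C1qb and C1qc, which make up most of that sum, since against the other 6 macrophage genes the groups overlapped (1.02 to 1.90 in control and 1.61 to 2.22 in FF-10101–treated tumors). Against the endothelial sum they did not overlap either, in the other direction, with 6.14 to 8.39 in control and 3.57 to 5.001 in FF-10101–treated tumors. Against the other 9 of 11 marker sums they did. For single genes, groups stood apart upward in 10.9% and downward in 9.37% of all genes, and no such share was computed for ratios. Against Csf1r alone the groups overlapped, with 2.48 to 4.17 in control and 3.89 to 5.03 in FF-10101–treated tumors. Among the sums with overlap were the pan-leukocyte sum (1.27 to 1.80 and 1.47 to 2.17), and those of conventional dendritic cell (2.13 to 6.81 and 2.82 to 6.10), monocyte (2.34 to 3.82 and 1.65 to 3.03) and T cell markers (13 to 18.1 and 11.1 to 16.2).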
